A study of Mus musculus with 8 samples.

Results

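Metallothioneins and the genes that move zinc across membranes were examined in whole liver of POMCMfn2KO mice and control mice. The 7 genes were Mt1, Mt2, Mtf1, Slc39a14, Slc39a4, Slc30a1 and Slc30a10, taken as every probe set of the array whose platform annotation names 1 of them and no other gene. These were 17 probe sets of 45037 that are not controls, and 7 of 18193 genes with a named probe set. In POMCMfn2KO mice the mitochondrial fusion gene Mfn2 is deleted in the neurons that make pro-opiomelanocortin (POMC), and the series asks how stress of the endoplasmic reticulum in the hypothalamus alters glucose production in the liver. The groups were 5 POMCMfn2KO and 3 control mice, all 6 weeks old, on a mixed background of C57Bl/6J, FVB/N and 129, with chow and water at will; the labels give the controls as WT. They name neither the Cre line nor the sex, collection time or batch; the design text calls the arrays of a group biological replicates.

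Metallothioneins are small cysteine-rich proteins that bind zinc and copper and buffer free metal in the cell, and liver is among their main sites of synthesis. Zinc acts on their genes through MTF1, a zinc-finger factor that binds metal response elements, and glucocorticoids and interleukin-6 also raise their transcription. ZIP proteins (the Slc39a genes) bring zinc into the cytosol, and ZnT proteins (the Slc30a genes) take it out of the cytosol.

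RefSeq promoter windows of Mt1, Mt2 and Slc30a1, the members known as direct MTF1 targets, are shown because Mt1 and Mt2 had the lowest levels of the 7 genes in POMCMfn2KO liver relative to control liver, whereas Slc30a1 differed less. Each window is on GRCm38.p6, plus strand, from 250 bases before the annotated start to 50 after it, with every match to the core of the metal response element (TGCACNC or TGCGCNC, on either strand) in capitals. The windows are chr8:94178839-94179138 for Mt1, chr8:94172368-94172667 for Mt2 and chr1:191906531-191906830 for Slc30a1.
Mt1: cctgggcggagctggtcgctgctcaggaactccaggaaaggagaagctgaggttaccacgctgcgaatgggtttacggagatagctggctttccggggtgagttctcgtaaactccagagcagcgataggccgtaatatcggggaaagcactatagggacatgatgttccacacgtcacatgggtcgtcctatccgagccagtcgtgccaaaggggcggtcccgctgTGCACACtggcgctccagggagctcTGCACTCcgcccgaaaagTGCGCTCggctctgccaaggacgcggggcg
Mt2: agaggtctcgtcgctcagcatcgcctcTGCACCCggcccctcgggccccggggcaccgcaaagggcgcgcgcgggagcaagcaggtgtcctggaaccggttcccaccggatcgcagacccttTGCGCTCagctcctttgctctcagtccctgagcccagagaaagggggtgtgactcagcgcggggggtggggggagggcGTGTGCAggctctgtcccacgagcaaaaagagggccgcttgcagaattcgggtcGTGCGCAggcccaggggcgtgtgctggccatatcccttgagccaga
Slc30a1: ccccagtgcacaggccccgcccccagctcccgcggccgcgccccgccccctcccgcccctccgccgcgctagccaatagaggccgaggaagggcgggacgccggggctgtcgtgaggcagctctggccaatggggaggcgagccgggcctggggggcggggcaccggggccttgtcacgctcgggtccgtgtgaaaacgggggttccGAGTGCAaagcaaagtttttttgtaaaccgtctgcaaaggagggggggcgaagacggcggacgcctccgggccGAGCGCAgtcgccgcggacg

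Mt1 held 3 such cores, with first bases at -23, 3 and 21 from the start, Mt2 held 4, at -223, -128, -50 and 5, and Slc30a1 held 2, at -43 and 31. Positions and counts refer to RefSeq's annotated start, which for Mt1 may lie upstream of the transcription start in common use, so they hold for this window alone. Of 32851 promoter windows of this length, 25.7% held at least 1 core, 1.97% at least 3 and 0.517% at least 4. The window of Slc30a10, the gene of a manganese exporter, held 3 matches, of which those at -233 and -232 overlap on opposite strands; Mtf1 held none, and Slc39a14 and Slc39a4 are not in the table. A palindromic pattern of the glucocorticoid response element, GNACANNNTGTNC, matched once, in Mt1 at -94, against 0.475% of all windows. None of the 5 windows held TTCNNNGAA, a pattern bound by STAT factors and found in 8.3% of all windows. Bases beyond these windows were not searched, and a match is a run of letters, not a measured binding site.

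All values below are log2 levels per probe set as normalised by the authors, and differences are POMCMfn2KO minus control on that scale, with mean ± SD. The list was selected on the differences between these same groups, in which Mt1 and Mt2 lay among the lowest of all genes. The members' differences are therefore given as a description, with no test. The brightest probe set of each of the 7 genes lay at or above 5.80, the level under which a gene was left out of the fit across all genes as dim, and so did 15 of the 17 probe sets. In that fit (limma, adjusted p under 0.05) 18.0% of 11986 genes were called, 7.02% as higher and 10.9% as lower. Of the 7 members 3 were called, Slc39a4 as higher and Mt1 and Mt2 as lower; since the list was chosen on this contrast, nothing is read from that count. The calls of Mt1 and Mt2 were lost when any single control was left out, that of Mt2 also with a trended and robust variance, and all 3 were lost without POMCMfn2KO 2 and 3 together. Without control 1, 2 or 3 the Mt1 difference was -2.61, -2.60 or -2.62 and the Mt2 difference -3.13, -3.14 or -3.15. Calls over all genes dropped from 2152 to 821, 820 and 863 in those fits, and to 640 without POMCMfn2KO 2 and 3. Values of the groups did not overlap in 7 of the 15 brighter member probe sets, against 26.3% of all probe sets as bright.

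Hepatocyte markers marked the tissue in every array: Alb, of albumin, read 15.24 to 15.27 in POMCMfn2KO and 15.24 to 15.28 in control livers. The summed linear level of 7 hepatocyte markers was 170000 to 175700 in POMCMfn2KO and 168600 to 169800 in control livers. It was higher in every POMCMfn2KO liver, though the closest values of the groups were nearly equal. Of the 7, Cps1, of the first urea cycle enzyme, rose by 0.31 (adjusted p = 0.0264) and Asgr1, of the asialoglycoprotein receptor, fell by 0.33 (adjusted p = 0.0120). The rest did not pass in limma: Apoa1 (0.12) and Hnf4a (0.22) were higher, Ttr (-0.11) was lower, and Alb (-0.006) and Cyp2e1 (-0.007) were nearly equal. POMCMfn2KO 2 and 3 stood apart from the rest. Of 11 pancreatic acinar markers with a probe set (14 listed), all 11 were higher in both than in every other array, with summed linear levels of 19200 and 20920, against 846.1 to 955.5 in the other POMCMfn2KO livers and 871.0 to 872.7 in control livers. Prss2, a trypsinogen gene, read 11.30 and 11.54 in those livers, against 7.28 to 7.59 in the other 6. Summed linear levels of 8 Kupffer cell markers were 6308 to 10880 in POMCMfn2KO and 8968 to 11090 in control livers, and 1 of them rose (Cd163) and 1 fell (Timd4). For 6 endothelial markers the sums were 4675 to 5943 in POMCMfn2KO and 3741 to 4833 in control livers, and 2 rose (Stab2 and Fcgr2b). For 6 stellate cell markers they were 5598 to 6162 in POMCMfn2KO and 5002 to 5434 in control livers, higher in every POMCMfn2KO liver. Most of the stellate sum was Dcn (difference 0.20), and none of the 6 passed in limma. Lrat (0.04) and Reln (0.11) were slightly higher, while Col1a1 (-0.29), Pdgfrb (-0.12) and Des (-0.03) were lower. Sums of 5 cholangiocyte markers were 225.8 to 270.1 in POMCMfn2KO and 216.0 to 280.5 in control livers. Those of 3 erythroid markers were 271.2 to 1226 in POMCMfn2KO, the highest in POMCMfn2KO 4, and 338.1 to 349.2 in control livers. The high sum in POMCMfn2KO 4 came from Alas2 alone, which read 10.20 there, against 7.78 to 8.20 in the other livers. Hba-a1 (4.38) and Slc4a1 (4.78) were dim and not raised in that liver. The part of these cell types in the differences below was not tested beyond leaving out POMCMfn2KO 2 and 3. Mfn2, whose deletion is in neurons and so is no check of the labels in liver, read 9.61 ± 0.24 in POMCMfn2KO and 9.88 ± 0.08 in control livers (adjusted p = 0.169).

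Both metallothioneins were lower in every POMCMfn2KO liver than in any control liver on their brightest probe sets, but by very different amounts from liver to liver. Mt1 read 13.60, 11.34, 11.41, 11.11 and 10.09 in POMCMfn2KO livers 1 to 5, against 14.12, 14.14 and 14.09 in controls 1 to 3. The means were 11.51 ± 1.28 in POMCMfn2KO (n = 5) and 14.12 ± 0.02 in control (n = 3), a difference of -2.61, or 6.10-fold. POMCMfn2KO 1 stood nearest to the controls, 1.43-fold below their mean, and POMCMfn2KO 5 farthest, 16.3-fold below it. The name of this probe set, 1422557_s_at, marks it as one whose probes can bind transcripts of more than 1 gene, so related metallothionein RNA can add to it. In whole liver, less RNA per cell cannot be told apart from fewer cells that make it.

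Mt2 followed the same order of livers at the extremes. Its single probe set read 12.40, 10.53, 10.28, 9.02 and 8.29 in POMCMfn2KO livers 1 to 5, against 13.26, 13.25 and 13.22 in controls. The means were 10.10 ± 1.58 in POMCMfn2KO and 13.24 ± 0.02 in control, a difference of -3.14, or 8.81-fold. Again POMCMfn2KO 1 was highest of its group and POMCMfn2KO 5 lowest. Relative to their own control means, Mt2 lay lower than Mt1 by 1.22 in POMCMfn2KO 4, by 0.92 in POMCMfn2KO 5, by 0.32 in POMCMfn2KO 1 and by 0.26 in POMCMfn2KO 3, and higher by 0.06 in POMCMfn2KO 2.

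A dimmer Mt1 probe set, 1451612_at, did not separate the groups. It read 6.66, 5.68, 5.99, 5.96 and 5.74 in POMCMfn2KO livers, against 6.59, 6.46 and 6.49 in control livers, a difference of -0.51. POMCMfn2KO 1 lay above all 3 controls, and POMCMfn2KO 2 and 5 lay under the dim limit, where background bounds the size of a difference. With the mean of both probe sets in place of the brighter one, the Mt1 difference was -1.56.

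**Figure D1:**
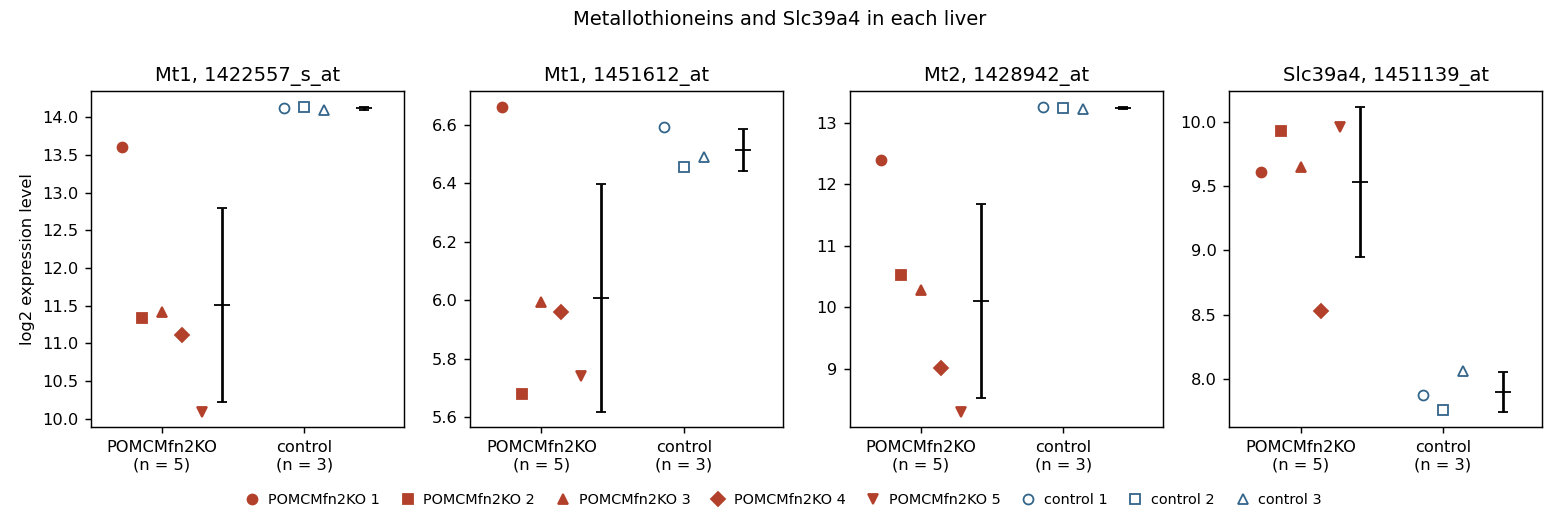
Log2 expression level (vertical axis, a separate scale in each panel) of both Mt1 probe sets, Mt2 and Slc39a4 in 5 POMCMfn2KO and 3 control livers; each point is 1 liver and the black bar is mean ± SD. On the bright Mt1 probe set POMCMfn2KO livers run from 10.09 to 13.60, all below the controls, while the dim Mt1 probe set overlaps; Slc39a4 runs from 8.53 to 9.96 in POMCMfn2KO, above all controls.

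The spread among POMCMfn2KO livers was itself large. The SD of Mt2 over the 5 POMCMfn2KO livers ranked 22 of 11986 genes from the top and that of Mt1 ranked 35, against a median SD of 0.13 over all genes tested. Among the 3 controls the SDs of Mt1 (0.022) and Mt2 (0.019) lay under the median of 0.069. Without POMCMfn2KO 1 the differences were -3.13 for Mt1 and -3.71 for Mt2. Without POMCMfn2KO 2 and 3 together, the livers high in pancreatic transcripts, they were -2.52 and -3.34.

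Mtf1, the zinc sensor that drives metallothionein transcription, differed little. Its brightest probe set read 7.74, 7.62, 7.75, 7.69 and 7.82 in POMCMfn2KO livers, against 7.51, 7.35 and 7.62 in control livers, a difference of 0.23 (7.72 ± 0.07 in POMCMfn2KO and 7.49 ± 0.13 in control). The lowest POMCMfn2KO liver and the highest control were nearly equal. The other 4 probe sets gave differences of 0.03, 0.11, 0.06 and 0.02 with overlapping groups, and the last 2 of these were dim. The mean of all 5 gave 0.09.

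Slc39a4, which encodes the importer ZIP4 known for zinc uptake in the intestine, where in mice it becomes more abundant when zinc is scarce, was higher in every POMCMfn2KO liver. It read 9.61, 9.93, 9.65, 8.53 and 9.96 in POMCMfn2KO livers 1 to 5, against 7.87, 7.76 and 8.06 in control livers. The means were 9.54 ± 0.58 in POMCMfn2KO and 7.90 ± 0.16 in control, a difference of 1.64, or 3.12-fold, on its only probe set. POMCMfn2KO 4 was the lowest of its group, 0.64 above the control mean, where the other POMCMfn2KO livers were 1.71 to 2.07 above it. POMCMfn2KO 1, the liver closest to the controls in Mt1 and Mt2, was not close to them in Slc39a4. Among the signed differences of 11986 genes, that of Slc39a4 ranked 26 from the top, and those of Mt2 and Mt1 ranked 7 and 11 from the bottom. By absolute size, Slc39a4, Mt2 and Mt1 ranked 59, 10 and 15. Of 5 intestinal epithelium markers with a probe set, Fabp2, of a fatty acid binding protein, was bright in both groups, with 11.86 in POMCMfn2KO and 12.18 in control livers, and the other 4 were near or under the dim limit. Vil1 averaged 5.81 in POMCMfn2KO and 5.85 in control livers, Lct averaged 4.70 in POMCMfn2KO and 4.58 in control livers, and Muc2 averaged 4.86 in POMCMfn2KO and 4.96 in control livers. Cdx2 rose slightly, with 5.96 in POMCMfn2KO and 5.69 in control livers (adjusted p = 0.0387), while the summed linear level of all 5, most of it Fabp2, was 3015 to 4516 in POMCMfn2KO and 4544 to 5043 in control livers. The part of such cells in the Slc39a4 values was not tested.

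Slc39a14 encodes ZIP14, a liver importer of zinc, iron and manganese that interleukin-6 is known to raise. Its 4 probe sets went different ways. The brightest read 9.28, 9.52, 9.53, 9.66 and 9.57 in POMCMfn2KO livers, against 9.55, 9.61 and 9.73 in control livers, a difference of -0.12 with overlapping groups. The next, 1438490_at, was higher in every POMCMfn2KO liver (7.40 ± 0.14 in POMCMfn2KO and 7.08 ± 0.03 in control, difference 0.32), whereas 1457770_at was lower in every one (6.57 ± 0.13 in POMCMfn2KO and 6.87 ± 0.15 in control, -0.29). The remaining probe set gave 0.37 with overlapping groups, and the mean of all 4 gave 0.07, so no direction can be given for the gene.

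The exporters differed less than the metallothioneins. Slc30a1 encodes ZnT1, the zinc exporter of the plasma membrane. Its brighter probe set read 9.62, 9.83, 10.09, 9.63 and 10.11 in POMCMfn2KO livers, against 10.02, 9.91 and 9.87 in control livers, and the groups overlapped (-0.08). The dimmer one, 1422786_at, read 7.69, 7.91, 7.84, 7.59 and 7.87 in POMCMfn2KO livers, against 8.45, 8.22 and 8.28 in control livers. On that probe set all POMCMfn2KO livers were lower, by 0.54 on average, and the mean of both gave -0.31. Slc30a10 gave differences of 0.11 and 0.09 on its 2 probe sets with overlapping groups. On both, POMCMfn2KO 4 was the highest liver (9.31 and 9.15) and POMCMfn2KO 1 the lowest (8.78 and 8.46).

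**Figure D2:**
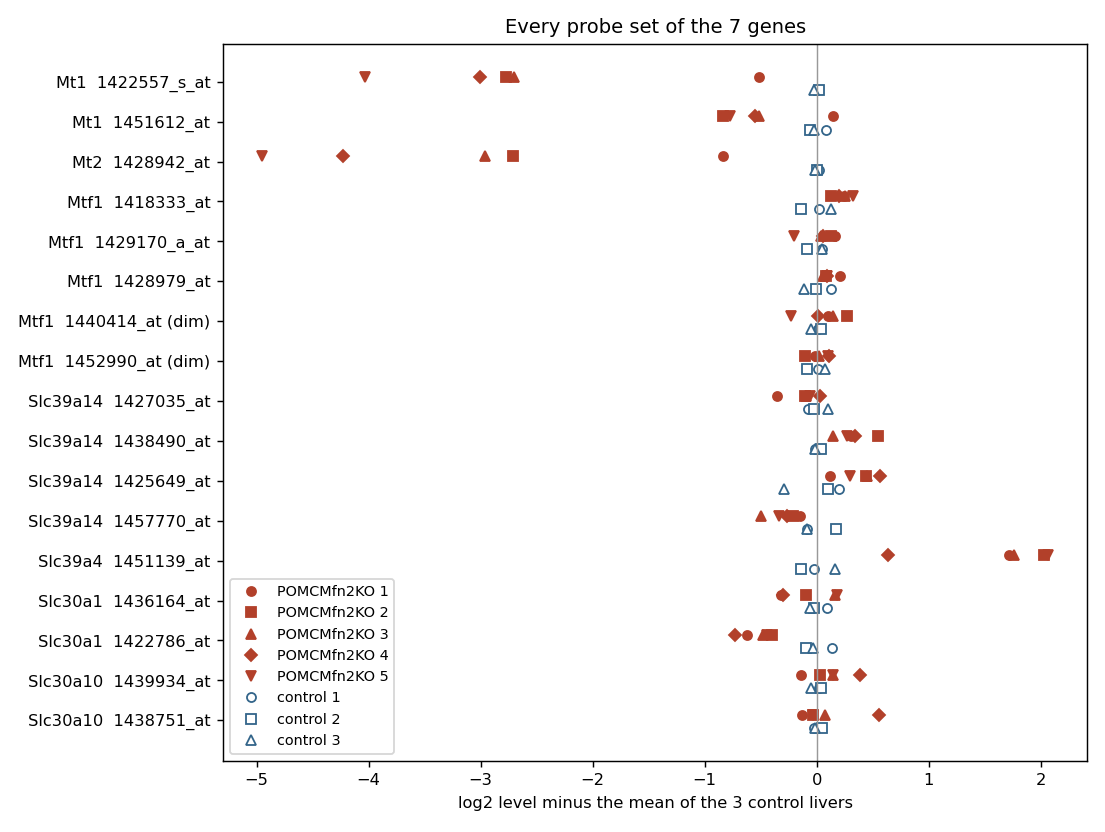
Log2 level minus the mean of the 3 control livers (horizontal axis) for all 17 probe sets of the 7 genes; filled symbols are POMCMfn2KO livers 1 to 5, open symbols control livers 1 to 3, and "dim" marks probe sets with a mean below 5.80. The bright Mt1 probe set and Mt2 lie far to the left with POMCMfn2KO 1 nearest to 0, Slc39a4 lies to the right, and probe sets of Slc39a14 lie on both sides.

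The rest of the zinc transporter families was tested as whole families, 22 genes with Mt3 and Mt4 included. Of these, 5 were dim (Mt3, Mt4, Slc39a12, Slc30a2 and Slc30a8) and 17 were tested. Slc39a2, Slc39a1 and Slc39a11 fell in POMCMfn2KO liver and none rose, which is 17.6% of the 17 against 10.9% of all genes called lower. The median difference of the 17 was -0.04, and that of all genes tested was -0.02. An unadjusted p under 0.05 was reached by 5 of the 17. All 3 that fell are ZIP genes, of 11 tested; of the 6 tested ZnT genes none passed in limma, with 1 at an unadjusted p under 0.05.

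Slc39a2, the gene of the importer ZIP2, read 5.62, 6.12, 5.65, 5.80 and 6.54 in POMCMfn2KO livers, against 7.47, 7.56 and 7.77 in control livers. The groups lay well apart, with a difference of -1.65 ± 0.20 (SE; 3.15-fold, adjusted p = 0.00129), and several POMCMfn2KO livers lay at or under the dim limit, which bounds its size. Slc39a11, of the importer ZIP11, fell by 0.67 ± 0.20 (adjusted p = 0.0491), with 7.73 in POMCMfn2KO 1, 8.61 to 8.71 in the other POMCMfn2KO livers and 9.06 to 9.21 in control livers. Slc39a1, of the plasma membrane importer ZIP1, fell by 0.31 ± 0.08 (adjusted p = 0.0311), with 9.99 in POMCMfn2KO 1, 10.27 to 10.29 in the other POMCMfn2KO livers and 10.52 to 10.54 in control livers. In both, POMCMfn2KO 1 was the lowest liver by a wide margin. Of the genes that did not pass, Slc39a10 (0.35, adjusted p = 0.271) and Slc39a7 (0.27, adjusted p = 0.0707), whose protein releases zinc from the endoplasmic reticulum, had the largest differences.

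The call of Slc39a2 held under each alternative tried, with adjusted p up to 0.0137. Slc39a1 lost its call without control 1 (adjusted p = 0.104), control 2 (0.110), control 3 (0.0976), POMCMfn2KO 3 (0.0521) and POMCMfn2KO 2 and 3 together (0.0827). Slc39a11 lost it without control 1 (adjusted p = 0.124), control 2 (0.136), control 3 (0.155), POMCMfn2KO 2 (0.0710), POMCMfn2KO 3 (0.0608), POMCMfn2KO 5 (0.0618) and POMCMfn2KO 2 and 3 together (0.0854). Its call was also lost narrowly (0.0504 to 0.0570) with dim genes kept, a trended and robust variance, quantile normalisation, or every gene taken as the mean of its probe sets. With that mean the Slc39a11 difference itself was unchanged at -0.67. Without POMCMfn2KO 1, Slc39a10 (adjusted p = 0.0110) and Slc39a7 (0.0267) rose, which made 5 of the 17 called; Slc39a7 also passed without POMCMfn2KO 4 (0.0452).

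**Figure D3:**
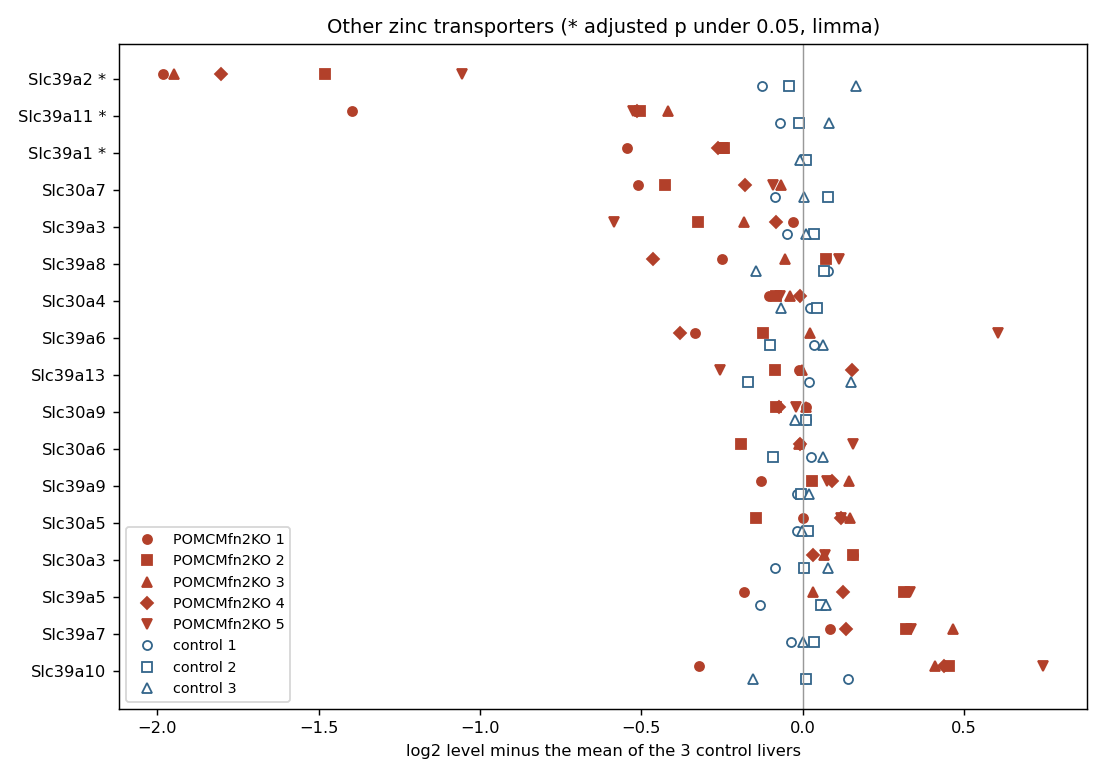
Log2 level minus the mean of the 3 control livers (horizontal axis) for the 17 tested zinc transporter genes outside the 7 described, ordered by difference; filled symbols are POMCMfn2KO livers, open symbols control livers, and a star marks an adjusted p under 0.05 in limma. Slc39a2, Slc39a11 and Slc39a1 lie left of every control liver in all 5 POMCMfn2KO livers, and Slc39a10 is spread on both sides of 0.

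Among other genes tied to MTF1, zinc or copper, the share that fell was 16.7% of the tested MTF1 targets, 9.09% of the zinc enzymes and 20.0% of the copper genes, against 10.9% of all genes tested, and none rose in limma, against 7.02%. These shares rest on 1, 1 and 2 genes. Slc39a10, among the MTF1 targets, was also counted among the ZIP genes above. The MTF1 list was not split by whether MTF1 raises or lowers a gene, so its share is no measure of MTF1 activity. Median differences were -0.02 over the MTF1 targets, -0.25 over the zinc enzymes and -0.12 over the copper genes, and 2, 3 and 3 of them had an unadjusted p under 0.05. Of 6 tested MTF1 targets outside the 7 genes, 1 fell, Selenow, of a small selenoprotein, by 0.56 ± 0.12 (adjusted p = 0.0159); its other bright probe set gave -0.44. Of 11 zinc-dependent liver enzymes 1 fell, the heme synthesis enzyme gene Alad, by 0.78 ± 0.21 (adjusted p = 0.0353; -0.93 on another probe set). Car3 had a larger difference on its brightest probe set, -1.31 with groups that did not overlap, but did not pass in limma (adjusted p = 0.0533). Its 3 other bright probe sets gave -2.76 to -2.28. Of 10 copper genes 2 fell: the copper chaperone gene Atox1 by 1.04 ± 0.18 (adjusted p = 0.00640; -0.92 on another probe set) and Atp7b, the pump that loads copper for export into bile, by 0.38 ± 0.09 (adjusted p = 0.0170). Other bright probe sets of Atp7b gave -0.03 and -0.00, and its call was lost with their mean (0.210). Atox1 read 11.45, 10.50, 10.69, 10.82 and 10.73 in POMCMfn2KO livers, against 11.89, 11.86 and 11.88 in control livers. As with Mt1 and Mt2, POMCMfn2KO 1 was the knockout liver nearest to the controls.

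Of these, Atox1 kept its call under each alternative. Without control 1, control 2 or control 3 adjusted p was 0.0668, 0.0556 and 0.0705 for Selenow, 0.122, 0.106 and 0.106 for Alad, and 0.0655, 0.0630 and 0.0750 for Atp7b. Alad was also lost without POMCMfn2KO 2 (0.0645) or 3 (0.0692) and with the mean of its probe sets (0.0568). Without POMCMfn2KO 2 and 3 together the values were 0.0788 for Selenow, 0.0880 for Alad and 0.0825 for Atp7b.

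Signalling genes through which interleukins and glucocorticoids act on metallothionein genes were mixed. Of 10 genes of the interleukin-6 and interleukin-1 route, 3 fell and 1 rose, against 10.9% and 7.02% of all genes tested, with a median difference of 0.10. Socs3, a feedback inhibitor that STAT3 induces, fell by 0.80 ± 0.12 (adjusted p = 0.00320), with 7.55 to 8.01 in POMCMfn2KO and 8.53 to 8.85 in control livers. Stat3 itself fell by 0.56 ± 0.10 (adjusted p = 0.00620), and its kinase gene Jak2 fell by 0.31 ± 0.09 (adjusted p = 0.0474). The receptor gene Il1r1 rose by 1.06 ± 0.20 (adjusted p = 0.00867). Other probe sets gave -0.87 and -0.21 for Socs3, -0.51 and -0.14 for Stat3 and -0.27 for Jak2. Jak2 lost its call without any single control (0.164, 0.138 and 0.108 without controls 1, 2 and 3), without POMCMfn2KO 2 (0.0748), 3 (0.0920) or 4 (0.0607), with dim genes kept (0.0571) and with the mean of its probe sets (0.108). Without POMCMfn2KO 2 and 3 together Jak2 (0.147) and Il1r1 (0.0632) were lost.

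Of 9 genes of the glucocorticoid route, Fkbp5 alone passed and rose, against 7.02% of all genes tested that rose. The 9 were the receptor gene Nr3c1, Hsd11b1 and direct targets of the receptor, and their median difference was -0.10. Fkbp5, the gene of a cochaperone of the receptor, read 11.39, 10.79, 10.71, 9.66 and 10.68 in POMCMfn2KO livers, against 9.39, 9.39 and 9.38 in control livers (1.26 ± 0.30, adjusted p = 0.0214; 1.02 on another probe set). It lost its call without control 1 (0.0792), control 2 (0.0781), control 3 (0.0783) or POMCMfn2KO 2 and 3 together (0.112). POMCMfn2KO 1, highest of its group in Mt1 and Mt2, was also the highest POMCMfn2KO liver in 6 of these 9 genes (Fkbp5, Tsc22d3, Per1, Sgk1, Tat and Zbtb16); over all genes tested it was the highest in 27.1%. This count was made after the values had been seen. POMCMfn2KO 4 was the lowest POMCMfn2KO liver in Fkbp5, Per1, Sgk1, Tat, Dusp1 and Zbtb16. How often that liver was lowest over all genes was not counted, so nothing is read from this. The lowest was POMCMfn2KO 5 in Nr3c1 (9.72), POMCMfn2KO 1 in Hsd11b1 (13.22) and POMCMfn2KO 2 in Tsc22d3 (11.10). A part of glucocorticoids in the metallothionein values was not tested.

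**Figure D4:**
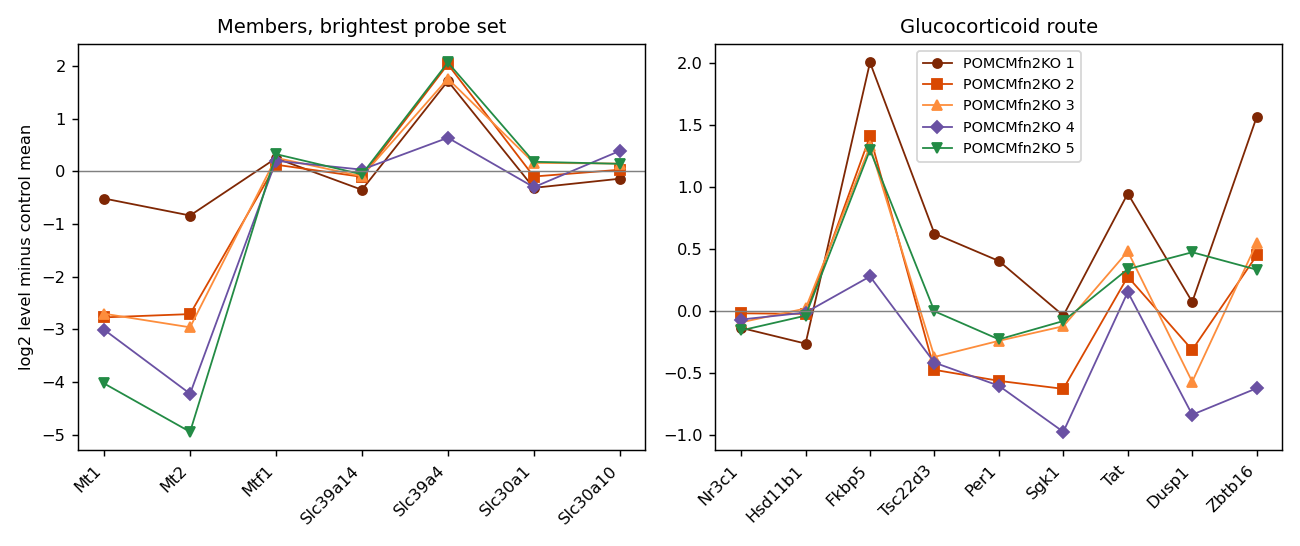
Log2 level minus the control mean (vertical axis) of the 7 genes on their brightest probe sets (left) and of 9 glucocorticoid route genes (right); each line joins the values of 1 POMCMfn2KO liver and 0 is the mean of the 3 controls. POMCMfn2KO 1 is the highest line at Mt1, Mt2, Fkbp5, Tsc22d3, Per1, Sgk1, Tat and Zbtb16, and POMCMfn2KO 4 is the lowest at Slc39a4.

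Likeness to Mt1, Mt2 and Slc39a4, the members with an absolute difference of at least 1, was measured as the root mean square distance over the 8 livers, each gene taken minus its own control mean. Mt1 and Mt2 were each other's nearest gene of all those tested, at a distance of 0.56. The next to Mt1 were Wfdc2 (0.76), Mogat1 (0.84), Dbp (0.84) and Thrsp (0.90), and the next to Mt2 were Mogat1 (1.03), Wfdc2 (1.07) and the acute phase genes Orm2 (1.12) and Saa1 (1.22). None of these had the wide spread of the metallothioneins: Wfdc2, a secreted protease inhibitor-like protein, read 6.64 to 7.54 in POMCMfn2KO livers, against 9.69 to 9.77 in control livers. Slc39a4 had closer neighbours, Hsph1 (0.23), Creld2 (0.24), Cry1 (0.27), Cd163 (0.29) and Manf (0.30). Hsph1, a heat shock protein gene, read 10.47, 10.70, 10.79, 9.99 and 11.00 in POMCMfn2KO livers, against 8.81, 8.96 and 8.84 in control livers. In all 5 of these genes, as in Slc39a4, POMCMfn2KO 4 was the lowest POMCMfn2KO liver. They were picked by closeness over all 8 livers, POMCMfn2KO 4 included, so this shared feature was selected for. The genes were found by their differences between the groups, so these distances are a description.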

How the data were processed

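The values were deposited by the authors as log2 expression levels per probe set of biotin-labelled cRNA on a mouse Affymetrix array, made with RMA from the affy package per the submitters' processing notes (versions not given in the sources used here). They were used as deposited, with array medians of 5.79 to 5.81. Arrays give no depth, and precision is limited by their number.

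Of 45101 probe sets, 64 were controls, 34945 had 1 gene symbol, 932 several and 9160 none in the platform annotation. Each of 18193 genes was represented by its brightest probe set over all 8 arrays. Genes under 5.80 on average, where the middle of all probe sets other than controls lies, were set aside as dim, and 11986 were tested. The fit was limma 3.58.1 in R 4.3.3 with plain empirical Bayes variances, 2-sided, and p was adjusted over all genes tested by Benjamini-Hochberg with a threshold of 0.05. "Rose" and "fell" are used of genes past it. The script was tested on simulated data. Plots were made in Python 3.11.15 (matplotlib 3.10.9).

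The members and lists were chosen with earlier results of these data known. Lists were whole gene families (ZIP, ZnT, metallothionein), MTF1 targets, zinc-dependent enzymes, copper handling, the interleukin and glucocorticoid routes, and markers of 8 tissues or cell types. Named were all members, the zinc family genes past the threshold with the 2 largest differences among the rest, and up to 4 genes past it in each other list; other names were chosen after their values were seen. Alternatives changed the probe set rule, filter, scaling, variance model, level of the fit, threshold and blocking by replicate number, or dropped arrays.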

Additional observations from a re-analysis of the deposited data

Results flagged for a closer look

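Among 31 values checked over the 5 POMCMfn2KO livers (17 member probe sets and 14 other named genes), 4 had a liver whose gap to its nearest neighbour took an unusually large part of the group's range; chance flags about 1 in 20 such groups. In Slc39a4, POMCMfn2KO 4 read 8.53, against 9.61 to 9.96 in the other POMCMfn2KO livers, a gap of 0.753 of the range. POMCMfn2KO 1 stood apart in the other 3: in Slc39a11 at 7.73, against 8.61 to 8.71 (0.892 of the range), in Slc39a1 at 9.99, against 10.27 to 10.29 (0.933), and in the Mtf1 probe set 1428979_at at 7.22, against 7.06 to 7.10 (0.751).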

How the results depend on the processing

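Of the 7 genes, Mt1 and Mt2 kept a negative and Slc39a4 a positive difference under all 13 alternatives run for each (Mt1 -3.13 to -1.56, Mt2 -3.71 to -2.17, Slc39a4 1.47 to 1.89). The mean of all probe sets moved 4 genes by more than the SD pooled over both groups (Mt1 and Slc30a1 by less than the POMCMfn2KO SD): Mt1 to -1.56, Mtf1 to 0.090, Slc39a14 to 0.071 and Slc30a1 to -0.31, by construction, since their probe sets differ. With single arrays left out, 820 to 2760 genes were called over all genes and 1 to 5 of the other zinc genes, against 2152 and 3; the counts were 821 and 1, 820 and 1, and 863 and 1 without controls 1, 2 and 3, 1399 and 1 without POMCMfn2KO 3, and 2760 and 5 without POMCMfn2KO 1. Without POMCMfn2KO 2 and 3 the counts were 640 and 1, and at an adjusted p threshold of 0.01 they were 702 and 1. Replicate numbers 1, 2 and 3 are shared between groups, and no control carries the number of POMCMfn2KO 4 or POMCMfn2KO 5. The deviations of same-numbered livers correlated at 0.08, 0.09 and -0.04, against -0.07 to 0.09 for livers of different number. So few pairs cannot settle whether the numbers pair the livers. With the number as a block, POMCMfn2KO 4 and POMCMfn2KO 5 do not enter the difference, which then comes from the livers numbered 1, 2 and 3. That fit called 1891 genes and 2 other zinc genes, and Slc39a1 (adjusted p = 0.0604) and Jak2 (0.0584) were lost. Mt2 differed by -2.17 in it, without the contribution of POMCMfn2KO 4 and POMCMfn2KO 5, the livers lowest in Mt2. Levels near 5.80 are limited by background. Each p rests on 5 POMCMfn2KO and 3 control livers and takes a common variance for both groups. The spreads were unequal, with a median SD over all genes tested of 0.13 in POMCMfn2KO and 0.069 in control livers.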
